A study of Mus musculus with 12 samples.

Results

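C-type lectin receptors are membrane proteins with which dendritic cells (DCs) and macrophages bind sugars on microbes, self glycoproteins and dying cells. Some signal through an activating motif or the adaptor Fc receptor gamma chain, others carry an inhibitory motif that recruits phosphatases, and others mainly take up antigen for presentation. In DCs their genes help to tell subsets apart: Ly75, also known as DEC-205, is typical of the cDC1 lineage, and Clec4a4, the target of the 33D1 antibody, is typical of cDC2 cells. The data below are on 10 such genes, namely Ly75, Clec12a, Clec7a, Clec4n, Clec4a1, Clec4a2, Clec4a3, Clec4a4, Clec10a and Cd209a, of 53801 gene IDs counted. All 10 were matched to a gene ID, had reads and were among the 20580 genes tested. The genes were chosen by their family and with values of these same libraries known, at least the differences between genotypes of Clec12a and Clec4a4, so the values of all members in the genotype contrasts are given as a description with no p-value. The comparison between subsets uses the same libraries, so its values for Clec12a and Clec4a4 are also given as a description with no p-value. For the other members it is not recorded whether values of that comparison entered the choice, and its tests should be read with this in mind.

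RNA of intestinal DCs was sequenced from mice of a mixed background in 4 groups of 3 libraries. The labels call the controls wild type (WT), and the other mice, labelled Cbfb-cKO, were Cbfb F/F: CD11c-Cre, that is, with both Cbfb alleles flanked by loxP and Cre expressed from a transgene. Cbfb is the shared partner of the Runx transcription factors, so its loss removes the function of all of them where Cre is active. Cells that were CD103-CD11b+ and cells that were CD103+CD11b- were sorted from each genotype, within a gate of CD45+CD64-CD11c+MHC-II+ cells from different mice per the study's methods. The CD11c promoter drives Cre in DCs and other CD11c+ cells, with some activity in T cells by the study's own account, and the labels give no age for the mice of these libraries. Whether the WT mice of these libraries carried CD11c-Cre is not stated in the labels.

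Between 2161929 and 5863484 reads were counted on genes in each library, and 19218 to 23720 genes had at least 1 read. Levels are given as CPM, the count of a gene divided by the scaled total count of its library. Counts of Cbfb over the whole gene were 199 to 228 CPM in WT and 215 to 290 CPM in Cbfb-cKO CD103+CD11b- libraries, and 161 to 217 and 170 to 273 CPM in the CD103-CD11b+ ones. Counts over a whole gene do not separate the deleted part from the rest, so they check neither genotype label. For the subset labels, the summed level of 7 cDC1 marker genes was 4565 to 7579 CPM in the 6 CD103+CD11b- libraries and 1933 to 3295 CPM in the 6 CD103-CD11b+ libraries, and that of 7 cDC2 genes was 227 to 942 and 1581 to 2402 CPM. Neither sum overlapped between the sorted populations.

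Of the 10 genes, 7 lie on chromosome 6 of the mouse genome (GRCm38). Clec4a1 (chr6:122921848-122934619), Clec4a3 (chr6:122952515-122969875), Clec4a4 (chr6:122990367-123024105), Clec4a2 (chr6:123106428-123143999) and Clec4n (chr6:123229843-123247021) follow each other on the plus strand. Clec12a (chr6:129342691-129365303, plus strand) and Clec7a (chr6:129461591-129472779, minus strand) are neighbours further along. Clec10a is on chromosome 11 (chr11:70156197-70170834, plus strand), Cd209a on chromosome 8 (chr8:3743397-3748984, minus strand) and Ly75 on chromosome 2 (chr2:60292103-60383303, minus strand).

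The 4 Clec4a genes are paralogs, and how much sequence they share bears on their counts. Reads with a low mapping quality, as those that fit several places, were removed before counting. In the coding sequences of GENCODE M21, Clec4a2 and Clec4a4 were 85.7% identical, while the other pairs of the 4 genes were 71.4% to 76.7% identical. The longest identical stretch of Clec4a2 and Clec4a4 was 163 bases, coding bases 75 to 237 of each, in exons 1 to 3 of chr6:122990441-123004046 in Clec4a4 and of chr6:123123662-123127989 in Clec4a2. This stretch is shown because reads within it cannot be told apart between the 2 genes:
Clec4a4 and Clec4a2: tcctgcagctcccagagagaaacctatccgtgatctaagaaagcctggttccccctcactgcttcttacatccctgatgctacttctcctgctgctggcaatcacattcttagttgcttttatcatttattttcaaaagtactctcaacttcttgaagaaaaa

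Toward the end of the coding sequence the paralogs separate. The last 60 coding bases before the stop codon are shown because reads from there can be assigned, with capitals for bases that differ from Clec4a4:
Clec4a4: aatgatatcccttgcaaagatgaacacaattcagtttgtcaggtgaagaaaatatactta
Clec4a2: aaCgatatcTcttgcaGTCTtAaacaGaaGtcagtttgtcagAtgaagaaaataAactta
Clec4a3: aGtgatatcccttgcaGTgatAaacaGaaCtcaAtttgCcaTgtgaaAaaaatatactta
Clec4a1: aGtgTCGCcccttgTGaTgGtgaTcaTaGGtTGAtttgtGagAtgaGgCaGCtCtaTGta

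In this stretch Clec4a2 differed from Clec4a4 at 11 bases, Clec4a3 at 10 and Clec4a1 at 25. Over whole transcripts, 114 of the 727 windows of 50 bases in Clec4a4 (15.7%) also occurred in Clec4a2, and 6.83% of the windows of Clec4a2 occurred in another gene. Clec10a shared 9.02% of its windows, mainly with its neighbour Mgl2, whereas Clec4a1, Clec4a3, Clec7a and Cd209a shared none. Windows were compared with annotated transcripts and not with the genome, and the length of 50 bases was set here because the read length is not given in the sources used here. In Ly75, 2.19% of the windows matched the gene Gm13571 on the other strand, and reads of these 2 genes cannot be told apart there, because reads were counted without regard to strand. The levels of Clec4a4, Clec4a2 and Clec10a may thus be underestimated, and how many reads were lost in each library was not tested.

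Sequences before the start site were searched for the Runx motif TGNGGT on both strands. In the RefSeq windows (GRCm38.p6) of 250 bases before to 50 bases after a start, 15039 of 32851 windows (45.8%) held this motif, and so did 5 of the 9 windows of 7 member genes. Clec4a3 has overlapping windows that hold the same match, which is counted for each of them. Clec4a4, Clec4n and Clec10a had no entry. The 30 bases around each match are shown because Cbfb binds DNA through Runx proteins, with the match in capitals and the strand of the gene:
Clec12a (chr6:129350077-129350106, plus strand): gtttctgcactgTGTGGTaggagcaaattg
Clec4a1 (chr6:122921796-122921825, plus strand): agagttccacccTGTGGTtttaaattttca
Clec4a3 (chr6:122952422-122952451, plus strand): cagggacttgagTGTGGTgctagagactca
Ly75 (chr2:60383456-60383485, minus strand): actcccaaacccTGTGGTtgtcctgtgcac

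The match began 155 bases before the RefSeq start of Clec12a, 40 before that of Clec4a1, 81 before the nearer start of Clec4a3 and 200 before that of Ly75. No match was found in the windows of Clec4a2, Clec7a and Cd209a. A match to 6 letters is a description of the sequence, and no binding was measured in these libraries.

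Levels can be compared between genes only per length, for which CPM was divided by the kilobases of the gene's exons. In WT CD103+CD11b- DCs Ly75 was highest at 59.95 ± 2.91 CPM per kb (SD, n = 3), followed by Clec7a at 29.8 ± 1.58, Cd209a at 27.6 ± 16.8 and Clec12a at 20.2 ± 0.624 CPM per kb. Cd209a was separated by its spread from neither Clec7a nor Clec12a. Clec4a1 and Clec4a3 were at the limit of detection in these cells, with 0.104 and 0.0406 CPM per kb. In WT CD103-CD11b+ DCs the order was different, with Cd209a at 99.6 ± 13.8 and Clec7a at 66.5 ± 5.27 CPM per kb above all other members. Clec4n at 17.4 ± 8.68, Clec10a at 16.4 ± 2.79 and Clec4a4 at 14.9 ± 4.34 CPM per kb came next and did not differ beyond their spread, and Ly75 followed at 8.69 ± 1.49 CPM per kb. In Cbfb-cKO CD103-CD11b+ DCs Clec4a4 came after Clec7a and Cd209a, at 49.1 ± 4.84 CPM per kb, and Clec12a followed at 25.9 ± 5.17 CPM per kb.

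**Figure D1:**
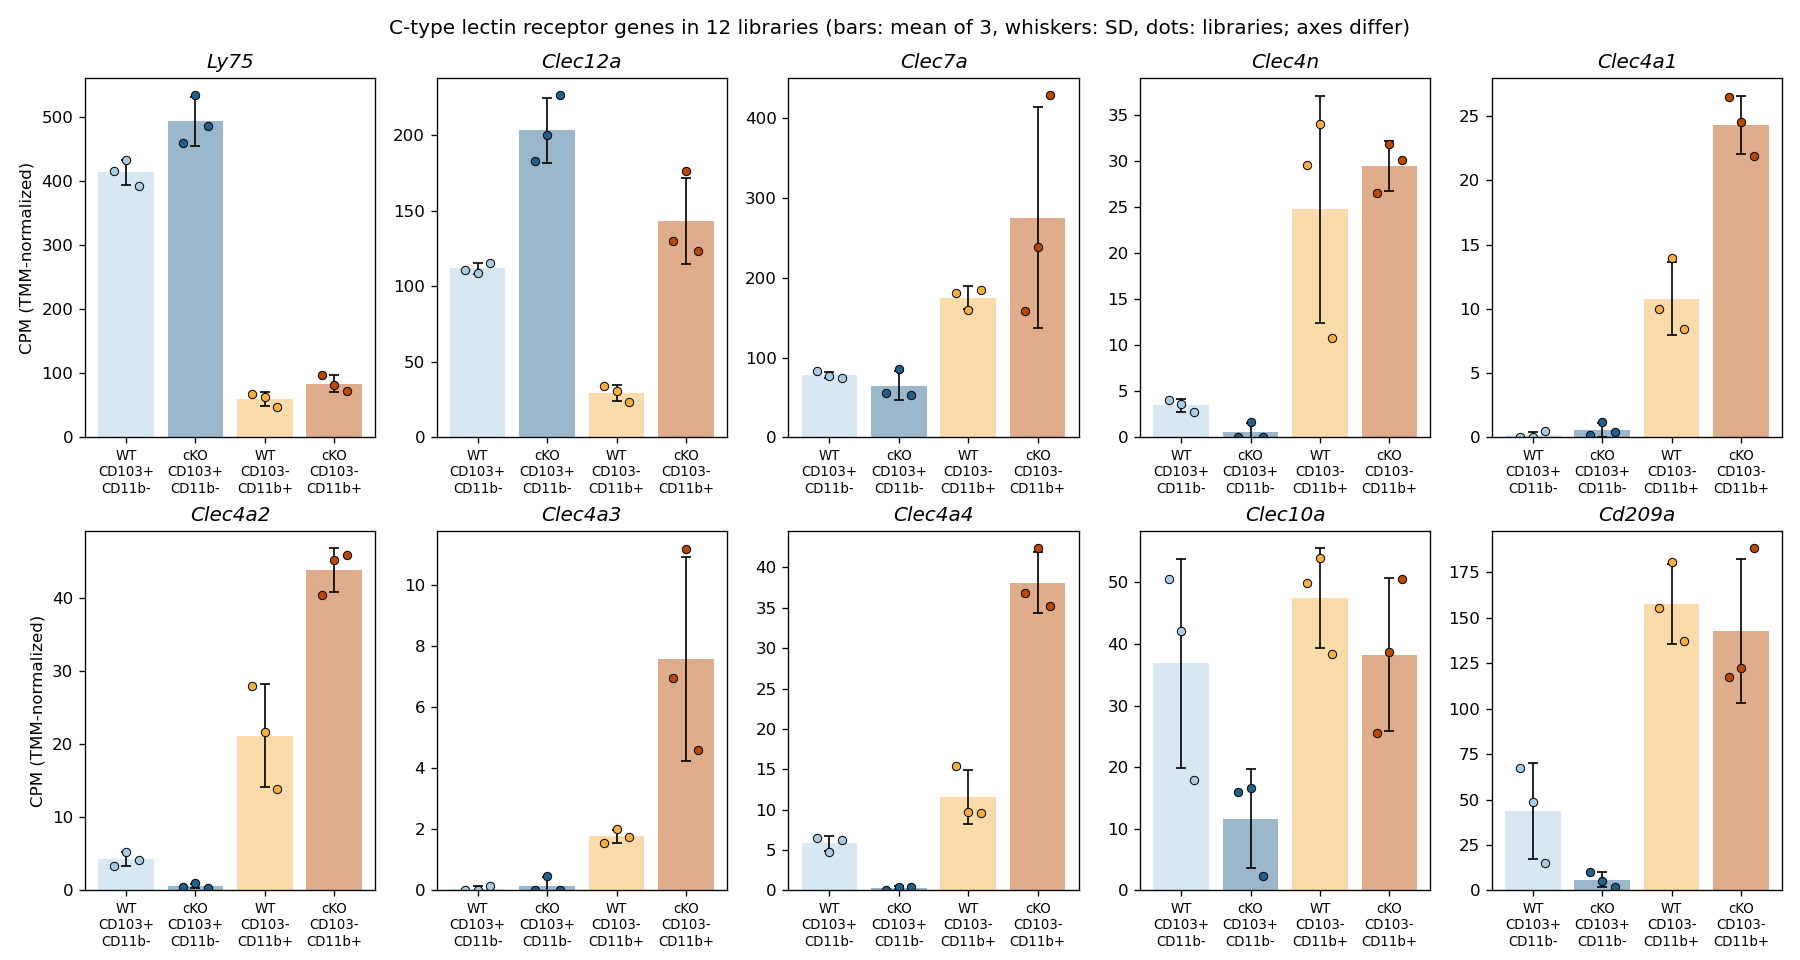
Level of each of the 10 genes in the 12 libraries, in CPM on a linear axis that starts at 0 and differs between panels, with bars for the mean of 3 libraries, whiskers for the SD and dots for libraries. Clec12a lay between 23.3 and 34.1 CPM in WT and between 123 and 176 CPM in Cbfb-cKO CD103-CD11b+ DCs, and Clec4a4 was at most 0.488 CPM in Cbfb-cKO CD103+CD11b- DCs.

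The first comparison was between the subsets within a genotype, for the question of which receptors mark CD103-CD11b+ as against CD103+CD11b- DCs. In WT mice, 6 of the 10 genes were higher in CD103-CD11b+ DCs (Clec4a1, Clec4a2, Clec4a3, Clec4n, Clec7a and Cd209a) and 2 were lower (Clec12a and Ly75). A gene was called when edgeR's quasi-likelihood test gave an adjusted p under 0.05 over all genes and the fold change was over 1.3. Of all genes tested, 11.8% were called higher and 7.00% lower in this comparison. Clec4a3 reached the 5 reads in a library that a gene needed to be tested in CD103-CD11b+ libraries alone, the group where it is high. Its place among the higher genes is thus a description, given with no p-value. Without it 5 members were called higher in WT mice and 6, with Clec4a4, in Cbfb-cKO mice. The places of Clec12a and Clec4a4 are a description too, as both were chosen by values of these libraries. In Cbfb-cKO mice 7 members were called higher, the same 6 and Clec4a4, and only Ly75 was called lower, against 9.26% and 6.81% of all genes. The median log2 difference of the members, 1.51 in WT and 4.86 in Cbfb-cKO mice, stood beside medians of 0.07 and 0.11 over all genes.

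Among the receptors that mainly take up antigen, Ly75 was the one higher in CD103+CD11b- DCs of both genotypes. Its level was 416, 433 and 393 CPM in WT CD103+CD11b- and 67.7, 64.0 and 48.3 CPM in WT CD103-CD11b+ libraries. In Cbfb-cKO mice it was 460, 534 and 487 CPM against 97.9, 82.6 and 71.9 CPM. The libraries of the 2 subsets were far apart in both genotypes. The log2 difference between subsets was -2.78 (SE 0.15, adjusted p = 4.37e-06, edgeR) in WT and -2.55 (SE 0.15, adjusted p = 4.05e-06, edgeR) in Cbfb-cKO mice.

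Cd209a, a mouse relative of human DC-SIGN, which binds mannose-rich and fucosylated sugars, went the other way. It was at 67.4, 48.7 and 15 CPM in WT CD103+CD11b- and at 155, 181 and 137 CPM in WT CD103-CD11b+ DCs, a log2 difference of 1.87 (SE 0.50, adjusted p = 0.0266, edgeR). Without replicate 2 of either WT group this adjusted p was above 0.05, with log2 differences of 1.91 and 1.71. In Cbfb-cKO mice the levels were 10.2, 5.37 and 1.96 CPM against 117, 122 and 188 CPM. The difference between the subsets was there 4.52 on the log2 scale (SE 0.58, adjusted p = 0.000414, edgeR).

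Clec10a, which binds terminal galactose and N-acetylgalactosamine, did not pass the limits in either genotype. In WT mice it was at 50.6, 42.1 and 17.9 CPM in CD103+CD11b- and 49.9, 54.0 and 38.4 CPM in CD103-CD11b+ libraries, which overlap (log2 difference 0.37, SE 0.52, adjusted p = 0.666, edgeR). In Cbfb-cKO mice the 2.35 to 16.6 CPM of CD103+CD11b- libraries lay below the 25.6 to 50.5 CPM of CD103-CD11b+ libraries, and the log2 difference was 1.66 (SE 0.55, adjusted p = 0.0631, edgeR). In the fit with a replicate block inside each genotype it was 1.70 (adjusted p = 0.0630, edgeR), in that with a block over both genotypes 1.84 (adjusted p = 0.0379, edgeR), and without replicate 3 of the WT CD103+CD11b- group it was 1.62, past the limits. It was also called by DESeq2 (adjusted p = 0.0159), without a filter on low counts, with a filter of 5 reads in every library and without the replicate 3 libraries of both CD103+CD11b- groups.

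Both receptors for fungal cell walls were higher in CD103-CD11b+ DCs. Clec7a, or Dectin-1, binds beta-glucan and signals through its own activating motif, and GENCODE lists its gene as a polymorphic pseudogene. Its level was 83.1, 77.3 and 75.0 CPM in WT CD103+CD11b- and 182, 160 and 185 CPM in WT CD103-CD11b+ libraries, without overlap (log2 difference 1.16, SE 0.30, adjusted p = 0.0243, edgeR). Leaving out any 1 of these 6 libraries took the call away, with log2 differences of 1.07 to 1.20. In Cbfb-cKO mice the log2 difference was 2.07 (SE 0.31, adjusted p = 0.00109, edgeR), from 55.3, 86.2 and 53.6 CPM to 159, 239 and 429 CPM.

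Clec4n, or Dectin-2, binds mannans and signals through the Fc receptor gamma chain. It was at 4.10, 3.66 and 2.75 CPM in WT CD103+CD11b- and at 29.6, 34.0 and 10.8 CPM in WT CD103-CD11b+ libraries, a log2 difference of 2.83 (SE 0.66, adjusted p = 0.0158, edgeR). The call was lost without replicate 1 or replicate 2 of the WT CD103+CD11b- group, at 2.95 and 2.84. In Cbfb-cKO CD103+CD11b- libraries 7 reads of Clec4n were counted, all of them in replicate 2 (1.71 CPM). With 311 reads in Cbfb-cKO CD103-CD11b+ libraries, the ratio of the summed counts was 46.7 (95% interval 22.4 to 117, counting error only), and edgeR's adjusted p was 0.000978. The fitted log2 difference was 4.86 to 9.84 when 1 library was left out, the highest without that replicate 2.

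The Clec4a genes encode the DCIR family, of which the products of Clec4a2 (DCIR1) and Clec4a4 (DCIR2) carry an inhibitory motif and those of Clec4a1 and Clec4a3 lack it. Both genes of the second kind had few reads in CD103+CD11b- and more in CD103-CD11b+ libraries. For Clec4a1, 3 reads were counted in the WT CD103+CD11b- group (in replicate 3) and 122 in WT CD103-CD11b+ libraries (9.98, 14.0 and 8.44 CPM), a ratio of 47.5 after scaling (95% interval 15.9 to 233, counting error only, adjusted p = 0.000899, edgeR). In Cbfb-cKO mice 7 and 264 reads gave a ratio of 39.6 (19.0 to 99.6, adjusted p = 0.000312, edgeR). Fewer reads were counted for Clec4a3, with 1 and 20 in WT mice, a ratio of 23.4 (3.73 to 968, counting error only). Without replicate 1 or 2 of the WT CD103+CD11b- group Clec4a3 was no longer called, and its fitted log2 differences were 3.85 and 3.67. In Cbfb-cKO mice, 2 and 87 reads of Clec4a3 gave a ratio of 45.7 (12.3 to 384). The single read of Clec4a3 in WT CD103+CD11b- DCs was also in replicate 3, and both reads in Cbfb-cKO CD103+CD11b- DCs were in replicate 2. The fitted log2 differences of such groups hang on 1 library. That of Clec4a1 in WT mice was 4.95 to 8.29 when 1 library was left out, the highest without replicate 3 of WT CD103+CD11b-, and that of Clec4a3 in Cbfb-cKO mice was 4.59 to 7.90, the highest without replicate 2 of Cbfb-cKO CD103+CD11b-.

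Clec4a2 and Clec4a4 were found in both WT subsets. Clec4a2 was at 3.42, 5.26 and 4.20 CPM in WT CD103+CD11b- and 28.0, 21.7 and 14.0 CPM in WT CD103-CD11b+ libraries, a log2 difference of 2.29 (SE 0.30, adjusted p = 0.000964, edgeR). Clec4a4 was at 6.50, 4.80 and 6.31 against 15.5, 9.66 and 9.60 CPM, and although the groups did not overlap, its log2 difference of 0.99 (SE 0.36) was not past the limits. Without replicate 1 of the Cbfb-cKO CD103+CD11b- group, a library that enters this comparison only through the shared fit, it was past them with the same 0.99. Both genes differed more between the subsets of Cbfb-cKO mice. For Clec4a2, 7 and 460 reads gave a ratio of 69.1 (33.3 to 173, adjusted p = 5.67e-06, edgeR). For Clec4a4, 3 and 411 reads gave a ratio of 144 (48.9 to 701, counting error only).

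Clec12a, or MICL, an inhibitory receptor that recognizes uric acid crystals and dead cells, was the second member that was higher in CD103+CD11b- DCs. It was at 111, 109 and 116 CPM in WT CD103+CD11b- and at 34.1, 31.0 and 23.3 CPM in WT CD103-CD11b+ libraries, a log2 difference of -1.92 (SE 0.17). In Cbfb-cKO mice the 183, 200 and 226 CPM of CD103+CD11b- libraries were above the 130, 176 and 123 CPM of CD103-CD11b+ libraries. The log2 difference there was -0.50 (SE 0.16) and did not pass. It passed without replicate 2 of the Cbfb-cKO CD103-CD11b+ group (-0.68) and without any 1 of the WT CD103-CD11b+ libraries (-0.55).

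**Figure D2:**
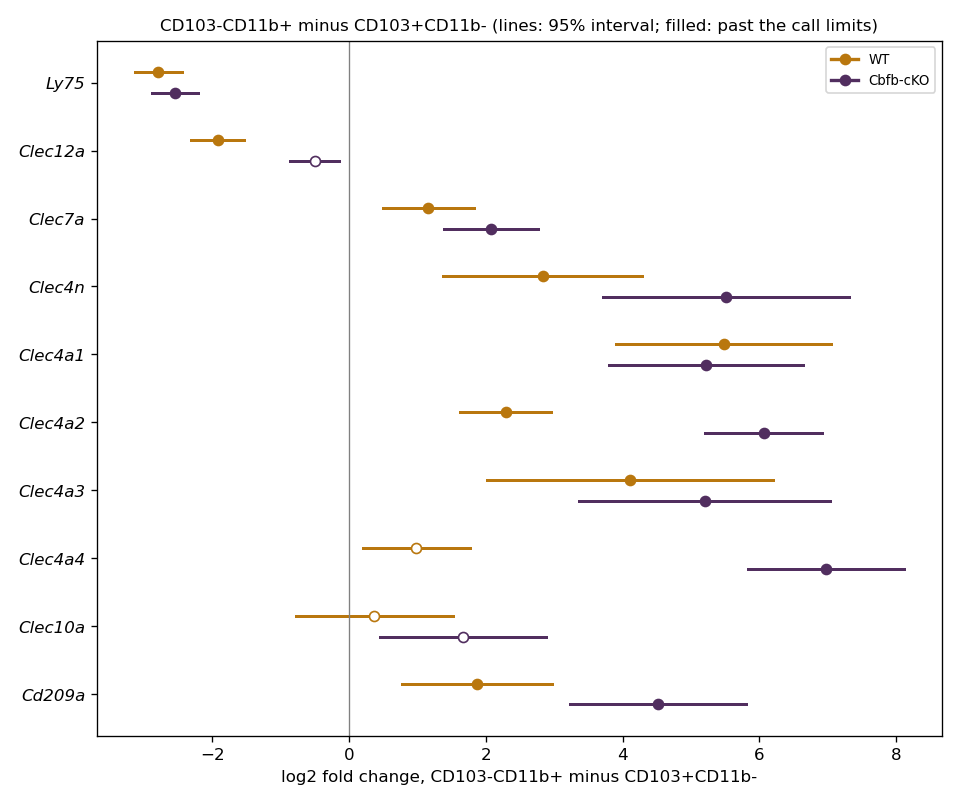
Difference between subsets for each gene, as log2 fold change of CD103-CD11b+ over CD103+CD11b- DCs on the x axis, in WT and Cbfb-cKO mice, with lines for the 95% interval and filled dots past the limits. Ly75 lay at -2.78 and -2.55, and Clec4a4 moved from 0.99 in WT to 6.97 in Cbfb-cKO mice.

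The second comparison was of Cbfb-cKO with WT mice within each subset, which asks how the receptors differ where Cbfb was deleted. In CD103-CD11b+ DCs 2 members, Clec12a and Clec4a4, were past the limits and higher, and none lower, where 1.11% of all genes were called higher and 0.500% lower. In CD103+CD11b- DCs Clec12a was past the limits and higher, and Clec4a2, Clec4a4 and Cd209a lower, where 0.224% and 0.797% of all genes were called. As the members were picked with such values known, nothing is read from these counts, and to be past the limits between genotypes or in the difference of effects is for a member a description of its size against the spread, not a test. The median log2 difference of the members was 0.84 in CD103-CD11b+ and -0.94 in CD103+CD11b- DCs, beside -0.06 and -0.02 over all genes. In bulk samples, a change in RNA per cell and a change in the share of cells that hold the RNA cannot be told apart.

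Clec12a was higher in Cbfb-cKO libraries of both subsets. From 34.1, 31.0 and 23.3 CPM in WT CD103-CD11b+ DCs, it was at 130, 176 and 123 CPM in the Cbfb-cKO ones, a log2 difference of 2.28 (SE 0.18, 95% interval 1.89 to 2.66). The lowest Cbfb-cKO library was above every WT library, and the log2 difference was 2.10 to 2.42 when any 1 of the 12 libraries was left out. In CD103+CD11b- DCs the levels were 111, 109 and 116 against 183, 200 and 226 CPM, again without overlap, and the log2 difference was 0.86 (SE 0.16, 95% interval 0.50 to 1.22). There the call was lost without any 1 of the 6 CD103+CD11b- libraries or without Cbfb-cKO CD103-CD11b+ replicate 1, at 0.78 to 0.93.

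Clec4a4 lay in opposite directions in the subsets. In CD103-CD11b+ DCs it was at 15.5, 9.66 and 9.60 CPM in WT and at 36.8, 42.4 and 35.2 CPM in Cbfb-cKO libraries, a log2 difference of 1.71 (SE 0.35, 95% interval 0.94 to 2.48). In CD103+CD11b- DCs it was at 6.50, 4.80 and 6.31 CPM in WT and at 0, 0.488 and 0.391 CPM in Cbfb-cKO libraries. The 79 WT and 3 Cbfb-cKO reads gave a ratio of 21.8 in favour of WT (95% interval 7.19 to 108, counting error only). The groups did not overlap in either subset. In CD103-CD11b+ DCs the call was lost without replicate 1 or 2 of WT CD103+CD11b-, replicate 2 or 3 of WT CD103-CD11b+ or any replicate of Cbfb-cKO CD103-CD11b+, at log2 differences of 1.6 to 1.76, while in CD103+CD11b- DCs the fitted log2 difference of -4.27 was -5.04 to -3.61 when any 1 of the 12 libraries was left out.

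Clec4a2, its closest paralog among the members, lay in the same directions. In CD103+CD11b- DCs 3.42, 5.26 and 4.20 CPM in WT stood against 0.444, 0.976 and 0.391 CPM in Cbfb-cKO libraries, a log2 difference of -2.73 (SE 0.40, 95% interval -3.61 to -1.85), from 59 and 7 reads, a ratio of 6.98 in favour of WT (3.18 to 18.1, counting error only). Without replicate 2 of the WT or replicate 1 of the Cbfb-cKO group the call was lost, at -2.55 and -2.51. In CD103-CD11b+ DCs the 28.0, 21.7 and 14.0 CPM of WT libraries lay below the 40.4, 45.2 and 45.9 CPM of Cbfb-cKO libraries, and the log2 difference of 1.04 (SE 0.28, 95% interval 0.43 to 1.65) was not past the limits. It was past them without replicate 1 of the WT CD103-CD11b+ group, at 1.32.

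Clec4a1 and Clec4a3, the DCIR genes without an inhibitory motif, were above WT in Cbfb-cKO CD103-CD11b+ libraries and not past the limits. For Clec4a1 9.98, 14.0 and 8.44 CPM stood against 26.5, 24.5 and 21.9 CPM (log2 difference 1.17, SE 0.50, 95% interval 0.08 to 2.26). For Clec4a3 1.57, 2.0 and 1.75 CPM stood against 6.96, 11.2 and 4.59 CPM (log2 difference 2.11, SE 0.64, 95% interval 0.71 to 3.5). Neither pair of groups overlapped. In CD103+CD11b- DCs the 10 reads of Clec4a1 and 3 of Clec4a3 in 6 libraries do not allow a comparison, with ratios of Cbfb-cKO over WT of 2.82 (0.643 to 16.9) and 2.42 (0.126 to 143).

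Cd209a was below WT in Cbfb-cKO CD103+CD11b- libraries, at 10.2, 5.37 and 1.96 CPM against 67.4, 48.7 and 15 CPM (log2 difference -2.80, SE 0.56, 95% interval -4.04 to -1.56). This call was lost in 10 of the 12 fits that leave out a library, all but those without WT CD103+CD11b- replicate 3 and Cbfb-cKO CD103-CD11b+ replicate 3, at -3.47 to -2.36. In CD103-CD11b+ DCs, 155, 181 and 137 CPM in WT overlapped with 117, 122 and 188 CPM in Cbfb-cKO libraries (log2 difference -0.15, SE 0.48, 95% interval -1.20 to 0.90). Clec10a in CD103+CD11b- DCs was at 50.6, 42.1 and 17.9 CPM in WT and at 16.0, 16.6 and 2.35 CPM in Cbfb-cKO libraries. The groups did not overlap, and its log2 difference of -1.61 (SE 0.55, 95% interval -2.82 to -0.40) was not past the limits. In CD103-CD11b+ DCs the Clec10a groups overlapped (log2 difference -0.32, 95% interval -1.48 to 0.84).

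The other members were not past the limits between genotypes by edgeR. Clec4n in CD103+CD11b- DCs was at 4.10, 3.66 and 2.75 CPM in WT and at 0, 1.71 and 0 CPM in Cbfb-cKO libraries, 45 against 7 reads (log2 difference -2.43, SE 0.85, 95% interval -4.29 to -0.56), a ratio of 5.32 in favour of WT (2.38 to 14.0, counting error only). DESeq2 put it past the limits. Leaving out 1 library moved the fitted value to between -6.76 and -1.78, the first without replicate 2 of the Cbfb-cKO group, which held all 7 reads, and the second without replicate 1 of that group. Its level in CD103-CD11b+ DCs overlapped between genotypes, at 29.6, 34.0 and 10.8 against 26.5, 31.9 and 30.1 CPM. Clec7a overlapped between genotypes in both subsets, with the widest spread in Cbfb-cKO CD103-CD11b+ libraries (159, 239 and 429 CPM, log2 difference 0.64, 95% interval -0.01 to 1.3). Ly75 was above WT without overlap in Cbfb-cKO libraries of both subsets, by 0.25 (95% interval -0.06 to 0.57) in CD103+CD11b- and 0.49 (95% interval 0.17 to 0.82) in CD103-CD11b+ DCs on the log2 scale. Neither passed the limit on the adjusted p. DESeq2 called Clec4a1, Clec4a2, Clec4a3 and Ly75 higher in Cbfb-cKO CD103-CD11b+ DCs, beside Clec12a and Clec4a4, which makes 6 members. Over all genes DESeq2 called 1136 in this comparison.

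**Figure D3:**
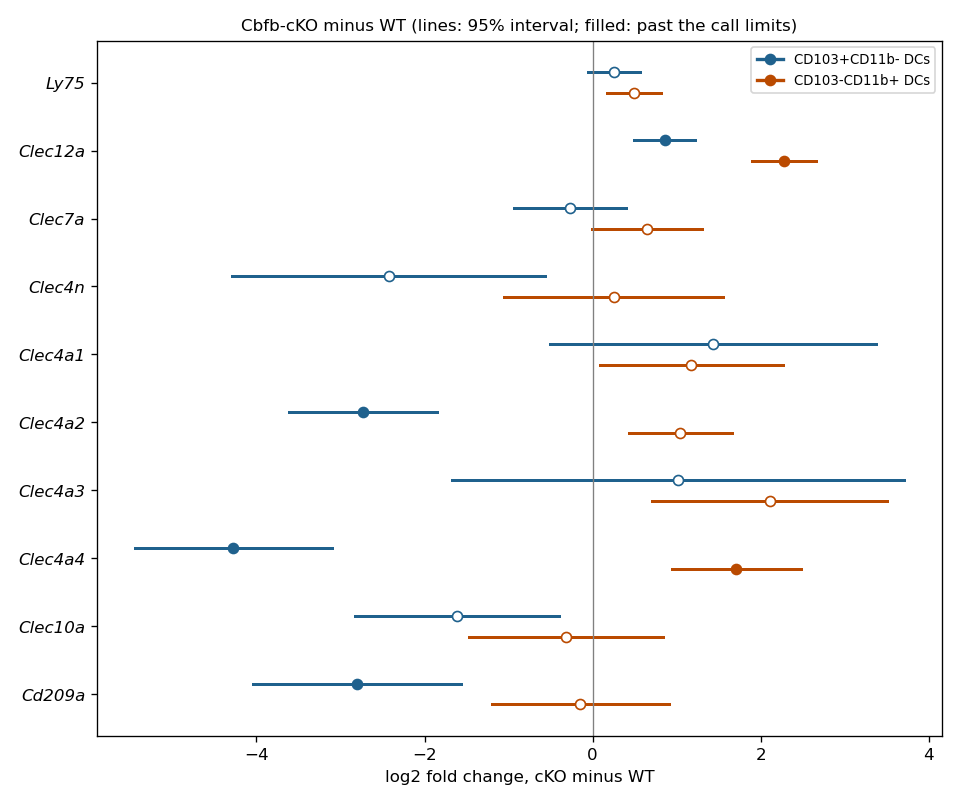
Difference between genotypes for each gene, as log2 fold change of Cbfb-cKO over WT on the x axis, in both subsets, with lines for the 95% interval and filled dots past the limits. Clec12a was above 0 in both subsets (0.86 and 2.28), whereas Clec4a4 was at -4.27 in CD103+CD11b- and 1.71 in CD103-CD11b+ DCs.

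Whether the genotype difference depended on the subset was addressed by the difference of the 2 effects, that in CD103-CD11b+ minus that in CD103+CD11b- DCs. Clec12a (1.42, SE 0.24, 95% interval 0.90 to 1.94), Clec4a2 (3.78, SE 0.49, 95% interval 2.7 to 4.85) and Clec4a4 (5.98, SE 0.64, 95% interval 4.58 to 7.38) were past the limits on the log2 scale, all above 0. Among all genes 0.554% were called above and 0.0972% below 0. For Clec12a both effects were positive and that of CD103-CD11b+ DCs was the larger one, whereas for Clec4a2 and Clec4a4 the effects had opposite signs. Clec12a lost this call in 8 of the 12 fits that leave out a library, at 1.24 to 1.48, namely without replicate 1 or 2 of WT CD103+CD11b-, of Cbfb-cKO CD103+CD11b- or of Cbfb-cKO CD103-CD11b+, or replicate 2 or 3 of WT CD103-CD11b+. The other 7 members were not past the limits. Cd209a was at 2.66 (95% interval 1.04 to 4.27) and was past the limits without replicate 3 of WT CD103+CD11b- (3.09), and Clec4n was at 2.68 (95% interval 0.40 to 4.96), with 7.01 without replicate 2 and 2.03 without replicate 1 of Cbfb-cKO CD103+CD11b-.

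Genes of other cell types moved with some of these values. The lists of such genes, and those of other lectins and signalling partners below, were also chosen with earlier results of these data known. Adjusted p-values of their genes are thus a description of size against the spread, not an independent test. The summed level of the 7 cDC2 markers was 679 to 942 CPM in WT and 227 to 313 CPM in Cbfb-cKO CD103+CD11b- libraries, the group in which Clec4a2 and Clec4a4 were low. Of this list 3 genes fell there by edgeR, the inhibitory receptor Sirpa (log2 difference -2.74, adjusted p = 0.0420), Irf4 (-1.78, adjusted p = 0.0241) and Zeb2 (-2.04, adjusted p = 0.0344), the last 2 being transcription factors of cDC2 cells. Of the 7 genes 5 were below 0, while Itgam (0.92, adjusted p = 0.239, edgeR) and Klf4 (0.15, adjusted p = 0.989, edgeR) were above 0 and not called. Klf4, Sirpa and Irf4 were the highest genes of the list per length, and none of the 7 was at 0 in any group. Of 3 genes of monocytes, Ly6c2 was at 50.3, 47.6 and 22.3 CPM in WT and 14.2, 22.2 and 9.39 CPM in Cbfb-cKO libraries of this subset, which do not overlap. Ccr2 was at 34.4 to 60.2 against 29.5 to 43.2 CPM and Plac8 at 109 to 196 against 87.4 to 145 CPM, and none of the 3 was called between genotypes. The part of such cells in the levels of Clec4a2, Clec4a4 and Cd209a was not tested.

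The 6 plasmacytoid DC markers summed to 902 to 2085 CPM in WT and 394 to 761 CPM in Cbfb-cKO CD103+CD11b- libraries, with replicate 3 lowest in each, as it was for Cd209a and Clec10a. Siglech, a lectin of plasmacytoid DCs, was at 464, 358 and 160 CPM in WT and at 111, 150 and 18 CPM in Cbfb-cKO libraries (log2 difference -1.81, adjusted p = 0.432, edgeR). None of the 6 genes, of which Bst2, Ly6d and Siglech were highest per length, was called between genotypes or without reads in any group. Without the replicate 3 libraries of both CD103+CD11b- groups 2 members were past the limits between genotypes in this subset, compared with 4 with all libraries. The part of plasmacytoid DCs in the values of Cd209a and Clec10a was not tested.

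In CD103-CD11b+ libraries the 10 macrophage markers summed to 462 to 692 CPM in WT and 562 to 827 CPM in Cbfb-cKO mice, which overlap, and Adgre1, the gene of F4/80, was the only one called (log2 difference 1.93, adjusted p = 0.0336, edgeR). Lyz2, Adgre1 and C1qb were the highest of this list per length. The 7 B cell markers, led by Cd79b, Cd22 and Ebf1, summed to 133 to 312 CPM in WT and 153 to 605 CPM in Cbfb-cKO libraries. Ms4a1 (3.72, adjusted p = 0.00455) and Cd22 (2.0, adjusted p = 0.00521) rose there by edgeR. Of the 5 neutrophil markers (Mmp9, Csf3r and Retnlg highest), which summed to 45.7 to 166 CPM in WT and 197 to 313 CPM in Cbfb-cKO libraries, Csf3r rose (1.44, adjusted p = 0.0353, edgeR), and S100a8 and S100a9 had no read in CD103+CD11b- libraries. These values stand beside the higher Clec12a and Clec4a4 of the same libraries, and their part in them was not tested.

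Of the 7 cDC1 markers (Wdfy4, Itgae and Irf8 highest), only Itgae, the gene of CD103, was called between genotypes, lower in Cbfb-cKO CD103-CD11b+ DCs (-1.89, adjusted p = 0.0301, edgeR). The 5 T cell markers, led by Cd4, Trac and Cd3e, summed to 56.1 to 85.8 CPM in WT and 30.2 to 39.1 CPM in Cbfb-cKO CD103+CD11b- libraries, without overlap, and to 13.7 to 107 and 37.2 to 120 CPM in CD103-CD11b+ libraries. None of the 5 was called. The lower sum in CD103+CD11b- libraries lay in Cd4, at 25.1 to 81.4 CPM in WT and 3.52 to 28.0 CPM in Cbfb-cKO mice. Mean levels of the other genes were not lower there. Trac was at 4.86 in WT and 6.55 CPM in Cbfb-cKO mice, Cd3e at 5.56 and 6.60, Cd3d at 0.999 and 1.08 and Cd3g at 1.10 and 1.16 CPM. The median log2 difference of the list was -0.08. The 6 epithelial markers (Cdh1, Epcam and Fabp2 highest) summed to 108 to 264 CPM in WT and 20.7 to 102 CPM in Cbfb-cKO CD103+CD11b- libraries, where Epcam fell (-1.88, adjusted p = 0.0432, edgeR). The lower sum lay in Cdh1 (-2.52, adjusted p = 0.105, edgeR) and Epcam, whereas the other 4 genes were above 0 and the median of the list was 1.74. In CD103-CD11b+ libraries the sum was 193 to 352 CPM in WT and 53.8 to 99.9 CPM in Cbfb-cKO mice, also without overlap, with no gene called. The part of T cells and epithelium in the members' values was not tested. Of the marker genes called between genotypes, Ms4a1 and Cd22 kept the call without any 1 of the 12 libraries. The call was lost in 4 of the 12 fits for Irf4, in 6 for Zeb2, Adgre1 and Itgae, in 7 for Csf3r, in 8 for Epcam and in 9 for Sirpa, with the direction kept in each.

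**Figure D4:**
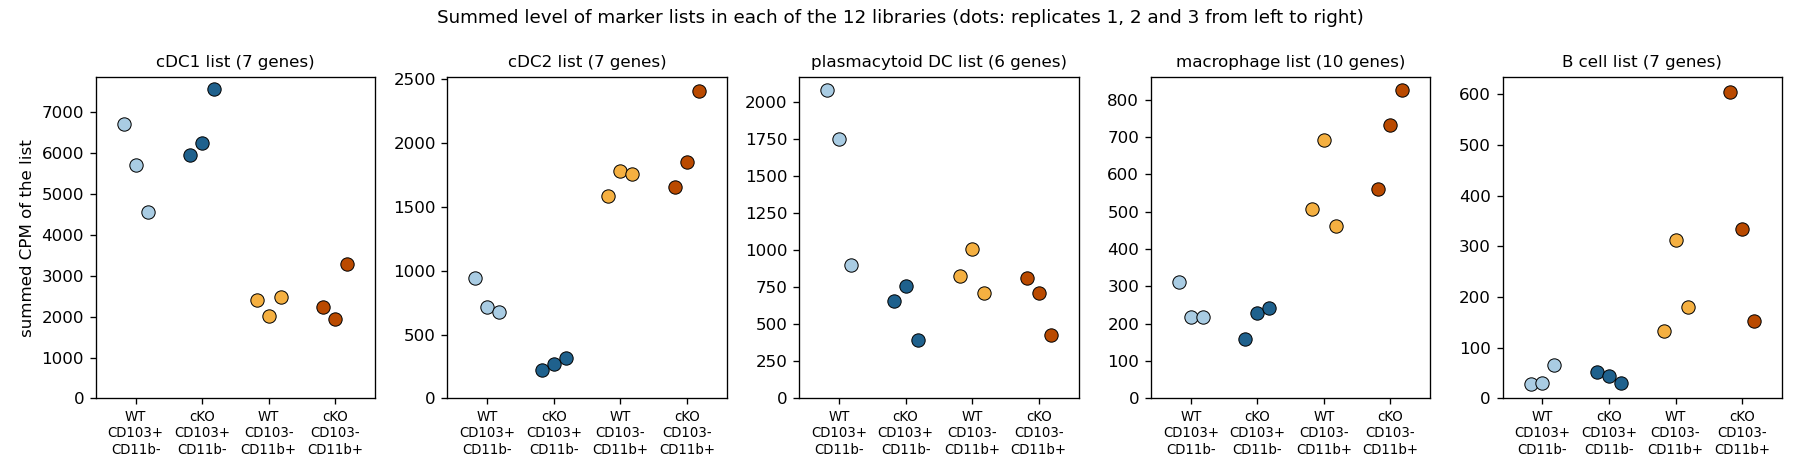
Summed CPM of 5 lists of marker genes in each library, by group, on linear axes that start at 0 and differ between panels, with 1 dot per library. The cDC2 list was at 227 to 313 CPM in Cbfb-cKO CD103+CD11b- libraries, below all other groups, and the plasmacytoid DC list was at 902 to 2085 CPM in WT CD103+CD11b- libraries, which overlap with the 711 to 1006 CPM of WT CD103-CD11b+ libraries.

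The members can be set beside 25 other C-type lectin genes of myeloid cells, of which 23 were tested. In WT mice 10 were called higher and 3 lower in CD103-CD11b+ DCs, with a median log2 difference of 0.85, and in Cbfb-cKO mice 12 and 3, with a median of 2.06. Among the higher genes, Clec4d and Clec12b in WT mice and Cd209b in both genotypes reached the 5 reads needed in CD103-CD11b+ libraries alone. As this is the group where they are high, their places are a description. Beside them stand 11.8% and 7.00% of all genes in WT and 9.26% and 6.81% in Cbfb-cKO mice. Leaving out 1 library gave 5 to 14 called genes of the list in WT and 8 to 16 in Cbfb-cKO mice, the lowest numbers being those without replicate 2 of WT CD103+CD11b- (5), replicate 1 of the same group (6), replicate 3 of WT CD103-CD11b+ (8) and, in Cbfb-cKO mice, replicate 1 of CD103+CD11b- (8). The 3 lower ones were Clec9a, a receptor of cDC1 cells for dead cells, Clec1a and Clec1b in both genotypes. Clec9a was the highest of the list per length in the mean of 12 libraries (72.6 CPM per kb), which came from the CD103+CD11b- groups. In CD103-CD11b+ DCs it was at 15.6 CPM per kb in WT and 16.4 CPM per kb in Cbfb-cKO mice, below Clec2d at 30.3 and 40.3 CPM per kb. Clec9a was at 306 to 418 CPM in WT CD103+CD11b- and 35.3 to 68.1 CPM in WT CD103-CD11b+ libraries (log2 difference -2.88, adjusted p = 0.000766, edgeR). Clec1a was also lower in CD103-CD11b+ DCs of WT mice (log2 difference -2.02, adjusted p = 0.000453, edgeR), and Clec2d, also among the 3 highest per length, was at -0.40 (adjusted p = 0.244, edgeR). Clec4f and Cd207 had no read in any library.

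Between genotypes, 1 of the 23 was called higher in CD103-CD11b+ DCs, where 1.11% of all genes were, and 2 lower in CD103+CD11b- DCs, where 0.797% of all genes were. With 1 library left out these numbers were 0 to 2 in each subset. For CD103-CD11b+ DCs the count stayed at 1 without WT CD103+CD11b- replicate 3 or Cbfb-cKO CD103+CD11b- replicate 1 or 3, was 2 without WT CD103-CD11b+ replicate 1 and was 0 without any other library. For CD103+CD11b- DCs it was 2 without replicate 3 of either Cbfb-cKO group, though without that of Cbfb-cKO CD103+CD11b- Cd209d was not one of them, was 1 without WT CD103+CD11b- replicate 3 or Cbfb-cKO CD103-CD11b+ replicate 2 and was 0 without any other library. Cd72, an inhibitory lectin best known from B cells, was at 36.2, 24.7 and 17.5 CPM in WT and 101, 110 and 87.7 CPM in Cbfb-cKO CD103-CD11b+ libraries (log2 difference 1.92, SE 0.40, adjusted p = 0.0430, edgeR). Its difference of effects was also called (3.44, SE 0.59, adjusted p = 0.0332, edgeR), as it lay at -1.52 (adjusted p = 0.152, edgeR) in CD103+CD11b- DCs. These values are a description, since the list was chosen with earlier results known. Both calls of Cd72 were kept in 4 of the 12 fits that leave out a library, those without replicate 3 of WT CD103+CD11b-, replicate 1 of WT CD103-CD11b+ or replicate 1 or 3 of Cbfb-cKO CD103+CD11b-, and lost in the other 8. Cd209d, a paralog of Cd209a, was at 46.5, 41.2 and 8.08 CPM in WT and 3.11, 1.95 and 0 CPM in Cbfb-cKO CD103+CD11b- libraries (log2 difference -4.09, SE 0.84, adjusted p = 0.0495, edgeR). Cd69, an early activation marker, fell from 88.9, 102 and 122 CPM to 38.4, 51.3 and 64.1 CPM in the same subset (log2 difference -1.04, SE 0.21, adjusted p = 0.0496, edgeR). The last 2 values were just inside the limit of 0.05, and the calls were lost in 10 (Cd209d) and 9 (Cd69) of the 12 fits that leave out a library.

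Downstream of the receptors, all 18 listed signalling partners were tested. In WT mice 1 was higher and 2 were lower in CD103-CD11b+ DCs, and in Cbfb-cKO mice 5 were higher and 1 was lower, beside the shares of all genes given for the other lectins. The 3 called genes of WT mice became 1 without replicate 2 of either WT group, 5 without WT CD103+CD11b- replicate 3 and 6 without Cbfb-cKO CD103-CD11b+ replicate 3, and those of Cbfb-cKO mice remained 6 to 7 in number. Fcer1g, the Fc receptor gamma chain through which Clec4n signals, was the one higher in both genotypes, from 14.1 to 35.2 CPM in WT CD103+CD11b- to 57.6 to 64.4 CPM in WT CD103-CD11b+ libraries (log2 difference 1.28, adjusted p = 0.0198, edgeR) and by 3.33 (adjusted p = 9.96e-05, edgeR) in Cbfb-cKO mice. Syk, the kinase that acts after Clec7a and Fcer1g, was called higher in CD103-CD11b+ DCs of Cbfb-cKO mice (log2 difference 1.38, adjusted p = 0.000551, edgeR). In WT mice its log2 difference was 0.56 and did not pass (adjusted p = 0.0543, edgeR). Between genotypes Prkcd, a kinase between Syk and Card9, was the one gene of the list called with all libraries, at 286, 272 and 278 CPM in WT and 386, 428 and 534 CPM in Cbfb-cKO CD103-CD11b+ libraries (log2 difference 0.69, SE 0.15, adjusted p = 0.0449, edgeR). A call in CD103-CD11b+ DCs was left in 2 of the 12 fits without a library, those without replicate 3 of either CD103+CD11b- group, and in CD103+CD11b- DCs 3 genes of the list were called without WT CD103+CD11b- replicate 3. Tyrobp and Plcg2, among the highest of this list per length, were not called between genotypes in either subset. Tyrobp, an adaptor with an activating motif, was at 106, 82.6 and 50.1 CPM in WT and 40.2, 40.3 and 32.9 CPM in Cbfb-cKO CD103+CD11b- libraries (log2 difference -1.06, adjusted p = 0.0968, edgeR).

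For Clec12a and Clec4a4, the members whose genotype differences were known at the choice, the 5 genes with the most similar pattern over the 12 libraries were listed. Similarity was the root mean square difference of log2 CPM after each gene was centred on its own mean. For Clec12a these were Rab30 (0.280), Gm13590 (0.317), Treml4 (0.364), Gca (0.384) and Trim7 (0.386), where the median gene tested was at 1.19. Rab30, a small GTPase of the Golgi, had mean levels of 79.1 CPM in WT and 97.5 CPM in Cbfb-cKO CD103+CD11b- DCs and of 18.7 and 106 CPM in CD103-CD11b+ DCs. For Clec4a4 they were Clec4a2 (0.549), Gm9733 (0.596), Sirpb1a (0.639), Gm15925 (0.641) and Pilra (0.648), with a median gene at 2.09. Clec4a2, the first of them, is also the gene with which Clec4a4 shares the 163-base stretch. Pilra, an inhibitory receptor of myeloid cells, was at means of 39.9 and 3.49 CPM in WT and Cbfb-cKO CD103+CD11b- and 92.2 and 120 CPM in CD103-CD11b+ DCs.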

How the data were processed

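RNA of sorted intestinal DCs was sequenced in 12 libraries, 3 per group. Per the labels and the methods, the authors trimmed reads with Trim Galore, aligned them with STAR 2.7 to mm10, removed reads of low mapping quality and marked duplicates, and counted them with HTSeq without regard to strand. The deposited values are raw counts per Ensembl gene. The 5 summary lines of each file were left out, and 59.7% to 66.1% of the reads in the files were on no gene. The members and gene lists were chosen with earlier results of these data known. Counts of all genes with at least 5 reads in at least 1 library (20580 genes) were fitted with edgeR 4.0.16 (R 4.3.3, TMM, quasi-likelihood, 4 groups in 1 model), with Benjamini-Hochberg adjustment over all genes. Fitted fold changes of groups with few reads depend on the prior count, so groups with 7 or fewer reads are also given as ratios of summed counts with exact binomial intervals. In addition to the members, the rule named the genes of the lists called between genotypes, the 3 highest per length in each list and the 5 genes most similar to Clec12a and Clec4a4. Genes were placed by GENCODE M21 (53706 of 53801 IDs matched). All 3 correlations of same-numbered libraries were above 0.1 in 1 of 4 comparisons, that of subsets in Cbfb-cKO mice (0.112 to 0.354). The labels do not say that a number marks a mouse, and p-values measure the spread between these samples. Alternatives were another normalization (RLE), DESeq2 1.42.0, other filters and call limits, only the samples compared, the replicate block and leaving out each library. After the data were seen, the fit without both replicate 3 libraries of CD103+CD11b- was added. Protein sequences were not analysed here. Some genes of the lists, and the sum of the monocyte list, are not reported here.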

Additional observations from a re-analysis of the deposited data

Results flagged for a closer look

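The difference of the genotype effects (effect in CD103-CD11b+ minus effect in CD103+CD11b- DCs, log2 scale) was 1.42 for Clec12a, 3.78 for Clec4a2 and 5.98 for Clec4a4. As these members were chosen with earlier results known, their values, also where they are past the limits, are given as a description. Of the other listed genes, 2 were past the limits in this difference by edgeR. These were Cd72 at 3.44 (adjusted p = 0.0332, edgeR) and Cd22, an inhibitory lectin of B cells, at 2.0 (adjusted p = 0.0474, edgeR). Their lists were also chosen with earlier results known, so these values are a description too. Of the 12 fits that leave out a library, 8 lost the call of Cd72 (3.13 to 4.02 over the 12) and 11 that of Cd22 (1.83 to 2.30), which was kept without replicate 3 of Cbfb-cKO CD103-CD11b+. Clec4a4 was below WT in all 3 Cbfb-cKO CD103+CD11b- libraries and above WT in all 3 Cbfb-cKO CD103-CD11b+ libraries.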

How the results depend on the processing

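No member past the limits changed direction under any alternative run. The number of members past the limits is given here for the subsets in WT, the subsets in Cbfb-cKO mice, the genotypes in CD103-CD11b+, the genotypes in CD103+CD11b- DCs and the difference of effects, which were 8, 8, 2, 4 and 3. Those of the subsets include Clec4a3 in both genotypes, Clec12a in WT and Clec4a4 in Cbfb-cKO mice, whose places are a description. With a filter of 5 reads in every library, only 5 members could be tested and 4, 4, 1, 2 and 1 were past the limits. At an adjusted p under 0.01 and a fold change over 5 these numbers were 2 for the subsets in WT, 0 for the genotypes in CD103-CD11b+ and 1 for the genotypes in CD103+CD11b- DCs. In CD103-CD11b+ DCs, DESeq2 called 6 members between genotypes. With only the 6 libraries compared, 1 and 2 members were called between genotypes in CD103-CD11b+ and CD103+CD11b- DCs, and without the replicate 3 libraries of both CD103+CD11b- groups also 1 and 2; the cause was not tested beyond the fewer libraries. Leaving out 1 library at a time gave 4 to 9, 8 to 9, 1 to 3, 1 to 4 and 2 to 4 members. For all genes, DESeq2 called 1136 genes between genotypes in CD103-CD11b+ DCs, where edgeR called 331. Leaving out 1 library at a time gave 1410 to 4373, 2124 to 3638, 121 to 517, 46 to 241 and 29 to 210 genes called in the 5 comparisons, where all libraries gave 3860, 3307, 331, 210 and 134. Over the other alternatives 397 to 5196, 559 to 4427, 27 to 1136, 19 to 652 and 11 to 506 genes were called. The counts of members stand beside these shifts of all genes.

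With the replicate block over both genotypes, 8, 9, 2, 4 and 3 members were past the limits, and Clec10a between subsets in Cbfb-cKO mice was the one gained. In that comparison DESeq2 called all 10 members, and edgeR called 9 without a filter on low counts. With a replicate block within each genotype 8 members passed between the subsets of each genotype, where 5196 of all genes passed in WT and 4427 in Cbfb-cKO mice. The replicate block raised the genes called between genotypes from 331 to 849 in CD103-CD11b+ and from 210 to 522 in CD103+CD11b- DCs, and those of the difference from 134 to 330. Correlations of same-numbered libraries were -0.0846 to 0.357 for the WT subsets, 0.0200 to 0.422 for the genotypes in CD103-CD11b+ and -0.0911 to 0.132 for those in CD103+CD11b- DCs. In a library, 3 reads corresponded to 0.485 to 1.53 CPM, which limits what can be said of the Clec4a genes and Clec4n in Cbfb-cKO CD103+CD11b- DCs.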
